A study of Mus musculus with 12 samples.

Results

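CD73, the product of Nt5e, is an ectoenzyme on the cell surface that takes the phosphate off extracellular AMP and so makes adenosine. It was read here with 7 other genes of extracellular purine handling: Entpd1, Adora2a, Ada, Adk, Dpp4, P2rx4 and P2rx7. A probe set, which is the group of array probes that measures 1 transcript, was taken when the annotation of the Mouse Genome 430 2.0 array gives it to 1 of these symbols alone. That rule found 24 of the 45037 probe sets in the table, 3 for Nt5e, 3 for Entpd1, 1 for Ada, 6 for Adk, 4 for Dpp4, 4 for P2rx4 and 3 for P2rx7. Adora2a, the gene of an adenosine receptor that T cells carry, had no probe set by this rule and was not analysed here.

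The 12 arrays held RNA of CD4 single positive (SP) thymocytes of C57BL/6 mice that were 6 to 8 weeks old, 3 arrays from independent preparations for each of 4 stages. All cells came from thymi pooled over mice, were depleted of CD8+ cells with antibody and complement, and were sorted as CD4+CD8-CD25-NK1.1-. Within that gate SP1 cells were 6C10+CD69+Qa-2-, SP2 cells 6C10-CD69+Qa-2-, SP3 cells 6C10-CD69-Qa-2- and SP4 cells 6C10-CD69-Qa-2+, in the order in which medullary thymocytes mature. The sort for the arrays did not exclude CD44hi cells, so mature T cells that had returned from the periphery may be among the SP4 cells. The paper put their possible share at a small percentage, without showing the data. The gate removed regulatory T and NKT cells only as far as CD25 and NK1.1 mark them.

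Cells release ATP, which P2X receptors such as P2RX4 and P2RX7 sense as ligand-gated cation channels. CD39, encoded by Entpd1, trims ATP and ADP to AMP, CD73 turns AMP into adenosine, and adenosine acts on receptors that in T cells mostly raise cyclic AMP. Adenosine deaminase (Ada) and adenosine kinase (Adk) remove adenosine, and the thymus is known for its high demand for adenosine deaminase, whose loss poisons developing T cells. CD26, encoded by Dpp4, is a surface dipeptidyl peptidase that in humans also docks adenosine deaminase.

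Promoter windows of 3 genes are shown because their levels moved in different ways between the stages. Nt5e was higher in SP4, and Dpp4 was higher in SP4 in a fit with a block for replicate number. Ada was lower on average without passing a test. Each window runs from 250 bases before to 50 bases after an annotated start (RefSeq, build GRCm38.p6), read 5′ to 3′ on the strand of the gene. Capitals mark matches on either strand to the GC box letters GGGCGG and to the CACCC letters. The windows are chr9:88327359-88327658 on the plus strand for Nt5e, and chr2:62412182-62412481 for Dpp4 and chr2:163750190-163750489 for Ada, both on the minus strand.
Nt5e: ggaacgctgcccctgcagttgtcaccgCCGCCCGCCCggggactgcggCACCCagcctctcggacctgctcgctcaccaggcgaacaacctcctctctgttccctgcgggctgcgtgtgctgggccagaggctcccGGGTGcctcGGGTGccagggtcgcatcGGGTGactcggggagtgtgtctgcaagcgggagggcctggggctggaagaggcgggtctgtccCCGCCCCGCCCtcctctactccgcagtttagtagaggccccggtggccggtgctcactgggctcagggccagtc
Dpp4: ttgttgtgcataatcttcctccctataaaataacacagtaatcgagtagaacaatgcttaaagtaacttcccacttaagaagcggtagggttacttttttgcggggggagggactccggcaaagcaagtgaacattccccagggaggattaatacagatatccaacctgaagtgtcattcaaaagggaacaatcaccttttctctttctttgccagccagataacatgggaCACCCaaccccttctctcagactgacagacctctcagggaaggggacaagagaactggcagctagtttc
Ada: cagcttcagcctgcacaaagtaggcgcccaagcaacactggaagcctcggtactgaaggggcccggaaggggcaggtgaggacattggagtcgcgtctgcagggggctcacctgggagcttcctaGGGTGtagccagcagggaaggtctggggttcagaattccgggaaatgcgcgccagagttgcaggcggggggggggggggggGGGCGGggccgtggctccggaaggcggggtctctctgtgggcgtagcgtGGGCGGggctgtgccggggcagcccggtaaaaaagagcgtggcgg
The Nt5e window was 71% G or C and held 4 GC box and 4 CACCC matches, and the GC box matches lay in overlapping pairs. The Ada window was 68% G or C, with 2 GC box matches and 1 CACCC match. The Dpp4 window was 45.3% G or C, below the median of 52.7% over all windows, and held no GC box match, 1 CACCC match and 1 match to TATAAA. A GC box match was present in 35.7%, a CACCC match in 57.5% and a TATAAA match in 13.6% of 32851 such windows of the mouse, so these letters are common and their presence is a description only.

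Array medians lay between 30.5 and 32.8, and 7 measured T cell genes of the gate, Cd4 and the Cd3 chains among them, had means over 100 in every subset. Cd69 mRNA averaged 776 in SP4 and 613 in SP3, which were sorted as CD69-, and 786 in SP2 and 818 for SP1, which were sorted as CD69+. The third arrays of the 4 subsets stood apart from the first and second. They separated on the first principal component, which held 56.8% of the variance, and their deviations from the subset means correlated with those of the first and second arrays between -0.812 and -0.388. The leading results are therefore also given without the third arrays, and fits with and without a block for replicate number are set side by side. Fold changes and tests below are from limma on the log2(intensity + 16) scale, fitted to all 45037 probe sets with Benjamini-Hochberg adjustment within a comparison, and a fold on this scale understates the change of a dim probe set. In bulk RNA of sorted cells, fewer cells of a type and less RNA per cell cannot be told apart.

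Nt5e rose in SP4. By its probe set of highest mean, 1428547_at, intensities were 33.9, 40.8 and 38.1 in SP1, 51.7, 55.7 and 76.2 for SP2, 42.4, 74.3 and 80.2 for SP3 and 166, 213 and 326 for SP4. Every SP4 array was above every other array, SP2 and SP3 overlapped, and SP1 was below both. The means were 37.6 ± 3.46 for SP1, 61.2 ± 13.1 for SP2, 65.6 ± 20.4 for SP3 and 235 ± 82.0 for SP4 (SD, n = 3 each). Between SP4 and SP1 the log2 fold change was 2.18 ± 0.25 (SE), a fold of 4.53 on the offset scale (adjusted p = 0.00159, limma), and the 3 pairs of the same replicate number gave 1.87, 2.01 and 2.66. This was the only one of the 24 probe sets to pass in that comparison, where 0.862% of all probe sets passed upward.

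The step from SP3 to SP4 carried most of that difference. SP4 exceeded SP3 by 1.60 ± 0.25 on the log2 scale (adjusted p = 0.0360, limma; 95% interval 1.06 to 2.15) and SP2 by 1.66 ± 0.25 (adjusted p = 0.0119, limma). Nt5e was again the only probe set of the 24 to pass in either comparison, where 0.149% of all probe sets passed upward against SP3 and 0.477% against SP2. With the replicate block the adjusted p-values were 7.77e-06 against SP1, 6.87e-05 against SP2 and 0.000486 against SP3, and no single array ended any of these 3 blocked calls. Without the block, the call against SP3 ended when any array other than the third of SP1, the third of SP2 or the first of SP4 was left out (adjusted p up to 0.197), and the call against SP2 ended without the first or the second SP2 array (up to 0.0760). The call against SP3 also ended with an offset of 1 (adjusted p = 0.0513), with no mean-variance trend (0.0617) and with only the 2 subsets compared in the fit (0.300), and the last of these ended the call against SP2 (0.0996). Without the third arrays the log2 fold changes were 1.94 against SP1, 1.55 against SP2 and 1.49 against SP3, with adjusted p-values of 0.00153, 0.00465 and 0.0110.

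Differences among the earlier stages did not pass. SP3 and SP2 differed by 0.06 on the log2 scale (95% interval -0.48 to 0.60). SP3 exceeded SP1 by 0.58 and SP2 exceeded SP1 by 0.52, and neither passed (limma adjusted p = 1.00 for both, unadjusted p = 0.0398 and 0.0611), although the arrays of SP1 lay below those of SP2 and SP3 without overlap.

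The other Nt5e probe sets gave a weaker picture. Probe set 1422974_at read 53.1, 50.9 and 32.9 for SP1, 58.2, 63.0 and 43.3 for SP2, 64.2, 54.3 and 52.2 for SP3 and 82.0, 71.5 and 53.3 for SP4. The SP4 arrays lay just above the SP1 arrays, and the third array was the lowest in every subset. Its SP4 over SP1 log2 fold change of 0.46 missed the threshold (adjusted p = 0.489, limma) and passed with the block (adjusted p = 0.0272, up to 0.121 when any 1 array of either subset was left out). The fold change was 0.45 without the third arrays (adjusted p = 0.260). Probe set 1459023_at stayed between 27.0 and 37.6 on all 12 arrays, and SP4 differed from SP1 by -0.07. Over the 12 arrays 1428547_at correlated with 1422974_at at r = 0.43 and with 1459023_at at r = -0.18, as a description of arrays that share subsets and replicates.

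**Figure D1:**
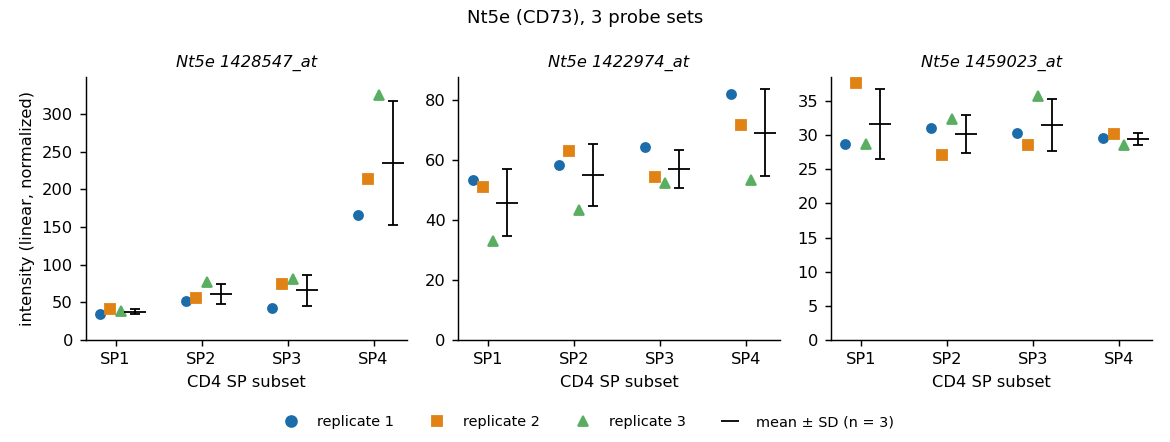
Linear intensities of the 3 Nt5e probe sets on the 12 arrays, with points for the arrays of each subset and a bar for the mean ± SD. In 1428547_at the SP4 arrays lie at 166 to 326 and all others at or below 80.2, while 1459023_at stays between 27.0 and 37.6 throughout.

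Among markers of other cells the SP4 gate could hold, the NKT and memory T cell sums rose in SP4 as Nt5e did. The regulatory T cell sum rose over SP3 within each replicate number, but its SP4 range overlapped those of SP1, SP2 and SP3. The summed intensity of 12 measured NKT and innate-like markers was 1906 to 3415 in SP4, against 511 to 808 in SP3, 301 to 591 in SP2 and 433 to 861 for SP1. Of the 12, 5 rose in SP4 over SP1 (9 with the block). In that comparison 1.52% of all genes were called in either direction, and 6.06% with the block. Zbtb16, the transcription factor gene that defines NKT cells, averaged 264 in SP4 and 25.2 in SP1, while Klra1 averaged 4.25 in SP4 and 3.73 in SP1, near the smallest values of the table. The sum of 8 activated or memory T cell markers was 1885 to 2406 in SP4 and 624 to 1134 in SP1, and 4 of the 8 rose (7 with the block). Foxp3, the defining gene of regulatory T cells, averaged 89.1 in SP4 and 20.4 in SP1 (adjusted p = 0.0360, limma). The sum of 9 regulatory T cell markers was 3239 to 5940 in SP4, 2329 to 3916 in SP3, 4460 to 7270 in SP2 and 3319 to 5828 in SP1. Over SP1 none of the other 8 passed without the block. With it Ctla4 (means of 784 in SP4 and 310 in SP1, adjusted p = 0.00296) and Capg (464 in SP4 and 199 in SP1, adjusted p = 0.00786) passed beside Foxp3, 3 of the 9. Of the rest, Il2ra and Nrp1 had higher means in SP4 than in SP1, and Ikzf2, Tnfrsf18, Tnfrsf4 and Gpr83 had lower ones. With the block, 4 of the 9 rose and 1 fell in SP4 over SP2, where 3.42% of all genes were called. In SP4 over SP3, 2 rose and 0 fell with it, where 1.5% were called. None of the 9 passed in these comparisons without the block. The part of NKT, memory or regulatory T cells in the Nt5e values was not tested.

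Entpd1 was dim throughout. Probe set 1423326_at read 18.7, 16.1 and 10.7 in SP1, 19.1, 13.4 and 12.8 for SP2, 18, 14.2 and 14.3 for SP3 and 26.8, 27.9 and 16.7 for SP4. The first and second SP4 arrays were above all others and the third was within the range of the earlier stages. Probe set 1450939_at read 6.76, 6.42 and 6.31 for SP1, 5.49, 7.56 and 6.44 for SP2, 6.36, 6.73 and 8.97 for SP3 and 8.91, 11.1 and 14.9 for SP4, so SP4 lay above SP1 and SP2 without overlap. The dimmest, 1453586_at, lay between 3.87 and 9.16 on all arrays. None of the 3 passed without the block, where the SP4 over SP1 log2 fold changes were 0.35, 0.29 and 0.08 (adjusted p = 0.441, 0.0939 and 0.976, limma). With the block 1423326_at passed in SP4 over SP1 (adjusted p = 0.0245) and over SP2 (0.0385), and 1450939_at in the same comparisons (0.00880 and 0.0146). The SP4 over SP1 differences were 0.38 and 0.20 without the third arrays (adjusted p = 0.141 and 0.117). Leaving out the third SP1 array ended the blocked call of 1450939_at against SP1 (0.0555), and each of 5 arrays ended that of 1423326_at (up to 0.112): the 3 of SP1 and the first and second of SP4. Against SP2, 3 arrays ended the blocked call of 1450939_at (up to 0.0785), the first of SP2, the third of SP2 and the third of SP4, and 8 arrays ended that of 1423326_at (up to 0.183), all but the third of SP1, of SP3 and of SP4 and the second of SP3. Without the third arrays, 1453586_at passed in SP4 over SP2 (adjusted p = 0.0243, limma). The sum of 11 myeloid and dendritic cell markers, cells that also carry CD39, was 1055 to 1936 in SP4 and 303 to 1131 for SP1. With the block 2 of the 11 were higher in SP4 than in SP1, where 6.06% of all genes were called in either direction. The sort took CD4+ cells only, and the study checked the sorted cells for TCRβ and reported nearly all of them positive. The part of myeloid cells in these values was not tested.

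Dpp4 was higher in SP4 by all 4 of its probe sets. The brightest, 1416697_at, read 337, 356 and 230 in SP1, 265, 335 and 286 for SP2, 340, 502 and 342 for SP3 and 489, 580 and 438 for SP4. SP4 was above SP1 and SP2 without overlap and overlapped SP3. The log2 fold change was 0.69 ± 0.22 over SP1 and 0.73 ± 0.22 over SP2, a fold of 1.62 and 1.66, and neither passed without the block (adjusted p = 0.262 and 0.324, limma). With the block both passed (adjusted p = 0.00852 and 0.0104). Leaving out the third SP1 array ended the first (0.0550), and leaving out the first SP2 array or the third SP4 array ended the second (up to 0.0642). Neither passed without the third arrays, at 0.60 and 0.80 (adjusted p = 0.320 and 0.185). Over SP3 the difference was 0.35 (95% interval -0.13 to 0.83).

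The other Dpp4 probe sets had SP4 over SP1 log2 fold changes of 0.59 for 1438279_at, 0.51 for 1459973_x_at and 0.27 for 1441342_at, each higher in 3 of 3 pairs, and none passed with or without the block. Against SP2, 1438279_at was higher by 0.73 and passed with the block (adjusted p = 0.0299, up to 0.15 when any of 5 arrays was left out: the first or second of SP2 or SP4, or the third of SP3). Probe set 1416697_at correlated with 1441342_at at r = 0.93, with 1438279_at at r = 0.85 and with 1459973_x_at at r = 0.62 over the 12 arrays. In 1459973_x_at the third array was the highest of SP2, SP3 and SP4, and in 1438279_at it was the lowest of all 4 subsets.

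**Figure D2:**
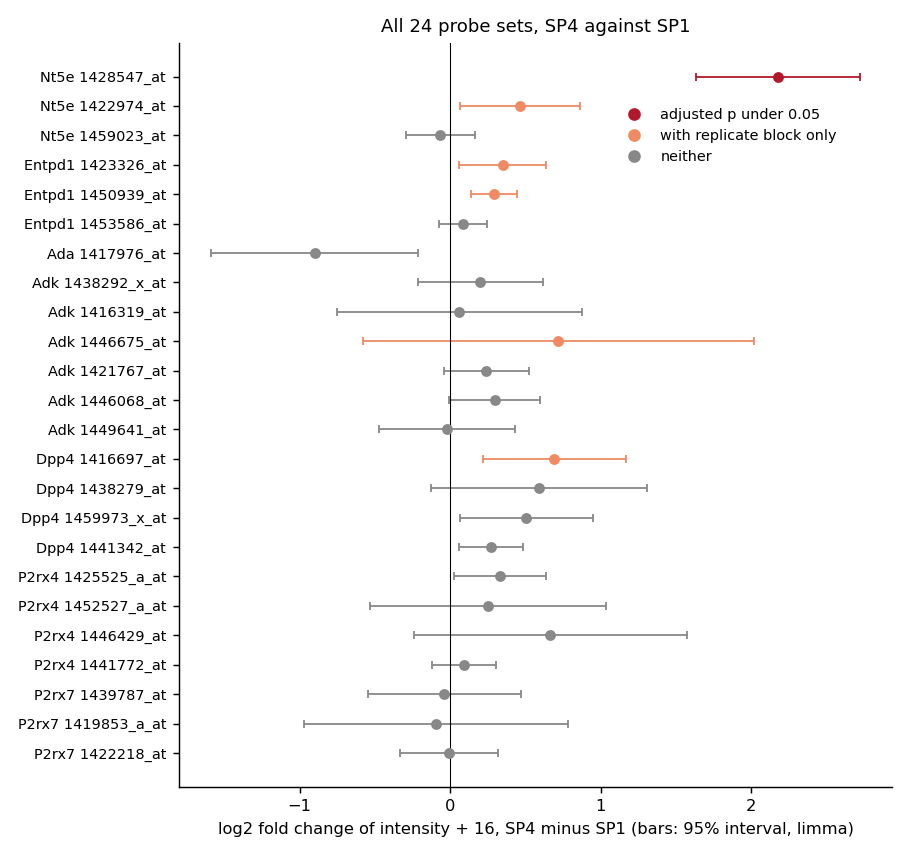
SP4 minus SP1 log2 fold changes of intensity + 16 for all 24 probe sets, with 95% intervals from limma without the block, and the colour giving the call. Nt5e 1428547_at stands at 2.18 and is the only one to pass without the block, 6 pass with it, and Ada lies lowest at -0.90 and passes in neither fit.

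Ada ran the other way, and its stages did not follow the order of maturation. Its single probe set, 1417976_at, read 307, 327 and 247 for SP1, 145, 82.1 and 214 for SP2, 387, 225 and 238 for SP3 and 111, 151 and 195 for SP4. SP1 and SP3 were high and overlapped, SP2 and SP4 were low and overlapped, and neither low subset overlapped a high one. The log2 differences were -0.90 ± 0.31 for SP4 over SP1, -0.82 for SP4 over SP3, 0.92 for SP3 over SP2 and -1.0 for SP2 over SP1, and none passed (adjusted p = 0.364, 0.888, 1.00 and 1.00, limma). The lowest adjusted p with the block was 0.0876, for SP4 over SP1, which was -1.19 without the third arrays (adjusted p = 0.0803). SP4 and SP2 differed by 0.10 (95% interval -0.59 to 0.79).

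The same high and low subsets appeared in the markers of double positive thymocytes, the cortical stage that precedes the SP cells. The summed intensity of 10 measured markers was 7869, 8106 and 1358 for SP1, 2870, 1300 and 1315 for SP2, 14198, 8213 and 2623 for SP3 and 3780, 3761 and 1404 for SP4. Rag1, which cuts antigen receptor genes in double positive cells, averaged 796 for SP1, 139 for SP2, 1396 for SP3 and 481 for SP4, and none of the 10 was near the smallest values of the table in every subset. With the block, 2 of the 10 rose in SP3 over SP2, where 0.28% of all genes were called in either direction. In SP4 over SP3, 1 fell with the block, where 1.5% of genes were called. The 2 that rose were Cd8a and Cd8b1 (adjusted p = 0.0468 and 0.0347, limma with the block). From SP1 to SP4 Cd8a averaged 635, 130, 938 and 207, and Cd8b1 1067, 301, 1813 and 565. Cd1d1 did not share the pattern, at means of 653, 623, 561 and 503. The third arrays carried low sums in all 4 subsets, and on them Ada spanned only 195 to 247 against 82.1 to 387 on the others. Within the third arrays SP4 differed from SP1 by -0.32 in Ada, against -1.34 and -1.04 within the first and second. CD8+ cells, double positive cells among them, had been depleted with complement and gated out by CD8 in all 4 subsets. The part of double positive cells in the Ada values was not tested.

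**Figure D3:**
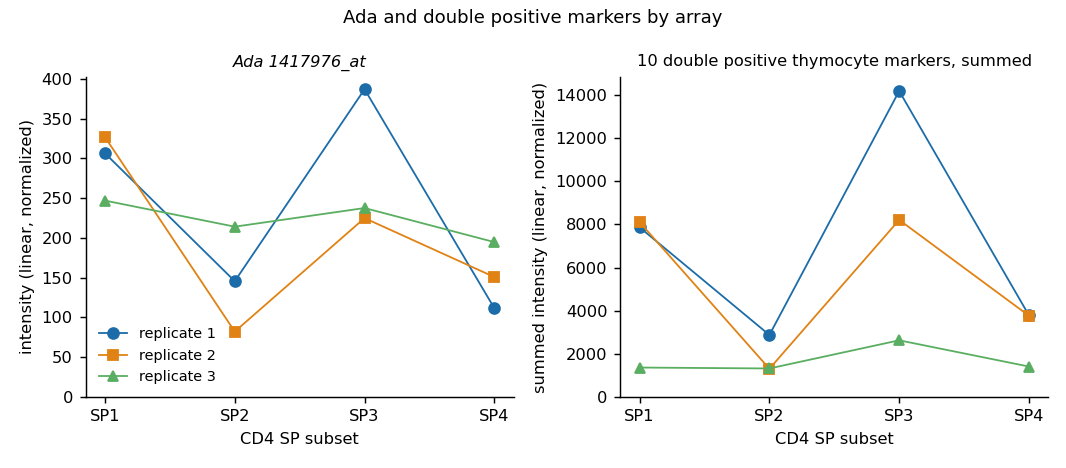
Left, intensity of the Ada probe set on each array from SP1 to SP4; right, summed intensity of 10 double positive thymocyte markers on the same arrays, with arrays of 1 replicate number joined. Replicates 1 and 2 are low in SP2 and SP4 and high in SP1 and SP3 in both panels. Replicate 3 spans narrower ranges, 195 to 247 for Ada and 1315 to 2623 for the marker sum. Its Ada values are also higher in SP1 and SP3 than in SP2 and SP4, and its marker sum is highest in SP3.

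Adk, the kinase that returns adenosine to AMP inside the cell, showed no difference between stages that held across its 6 probe sets. The brightest, 1438292_x_at, read 520, 500 and 403 for SP1, 443, 360 and 482 for SP2, 537, 396 and 518 for SP3 and 498, 509 and 633 for SP4, and SP4 exceeded SP1 by 0.20 (95% interval -0.22 to 0.61), a difference that was -0.02 without the third arrays. In 1416319_at the third array was the lowest of each subset, at 114 to 158 against 200 to 290 on the others. In 1446675_at it was the highest, at 65.2 to 199 against 23.8 to 49.7, and these probe sets correlated at r = -0.78 over the 12 arrays. The only Adk call was that of 1446675_at in SP4 over SP1 with the block (log2 fold change 0.72, adjusted p = 0.0492 with the block and 0.964 without it, limma). It ended when any of 9 arrays was left out, all but the first of SP1, the second of SP2 and the second of SP4 (up to 0.240), and without the third arrays the fold change was 0.38 (adjusted p = 0.424). The remaining 3 Adk probe sets, 1421767_at, 1446068_at and 1449641_at, read between 10.9 and 53.6, with SP4 over SP1 log2 fold changes of 0.24, 0.30 and -0.02. In 1446068_at the SP4 arrays, at 40.7 to 53.6, lay above all others, which were at 36.3 or below. Its SP4 over SP1 difference did not pass (adjusted p = 0.651 without the block and 0.208 with it, limma).

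P2rx7 had its highest means in SP2. This receptor opens a cation channel, and on mouse T cells its activation sheds CD62L and can kill the cell. Probe set 1439787_at read 86.0, 127 and 120 for SP1, 138, 212 and 146 for SP2, 71.8, 130 and 104 for SP3 and 93.4, 127 and 101 for SP4. The SP2 arrays were above all others. SP4 was below SP2 by 0.54 ± 0.23 on the log2 scale (fold 0.69), SP3 was below SP2 by 0.63, and SP2 was above SP1 by 0.50. None of these passed without the block (adjusted p = 0.721, 1.00 and 1.00, limma), and SP4 over SP2 passed with it (adjusted p = 0.0307, up to 0.160 when any of 5 arrays was left out: the first of SP1, the first or second of SP2, the second of SP4 or the third of SP4). With the block, SP3 over SP2 stood at 0.0611 and SP2 over SP1 at 0.243. SP4 over SP2 was -0.58 without the third arrays (adjusted p = 0.615).

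A second P2rx7 probe set gave the same order of means. Probe set 1419853_a_at read 49.5, 55.4 and 18.5 for SP1, 67.0, 105 and 37.5 for SP2, 33.1, 52.6 and 16.9 for SP3 and 44.5, 53.2 and 15.7 for SP4, with the third array the lowest of every subset. SP4 was below SP2 by 0.67 on the log2 scale and SP3 was below SP2 by 0.76, lower in 3 of 3 pairs each. With the block both passed (adjusted p = 0.00435 and 0.0183), and without it neither did (0.944 and 1.00, limma), nor without the third arrays, at -0.63 and -0.79 (adjusted p = 0.325 and 0.273). No single array ended the blocked SP4 over SP2 call, and the SP3 over SP2 call ended without any 1 of 5 arrays, the first or second of SP2 or any of SP3 (up to 0.151). In SP3 over SP2 this was the only one of the 24 probe sets called with the block, where 0.131% of all probe sets fell, and without the block 0 of the 24 passed, as did 0% of all probe sets (2 of the 24 at an unadjusted p under 0.05). The dimmer 1422218_at was also highest in SP2, at a mean of 40.4 against 32.8 to 34.7 elsewhere, and passed nowhere.

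P2rx4, whose gene is the nearest protein-coding neighbour of P2rx7 on chromosome 5, did not share that peak. Probe set 1425525_a_at read 98.5, 101 and 108 for SP1, 114, 120 and 110 for SP2, 108, 123 and 115 for SP3 and 113, 138 and 149 for SP4. SP4 lay above SP1 without overlap, with a log2 fold change of 0.33 that did not pass (adjusted p = 0.563 without the block and 0.127 with it, limma). Probe set 1446429_at had 225 on the third SP4 array and 40.0 to 92.3 on the other 11 arrays, so its SP4 mean rested on that array, and its SP4 over SP1 difference was 0.67 with the third arrays and 0.27 without them. The other P2rx4 probe sets, 1452527_a_at and 1441772_at, gave SP4 over SP1 log2 fold changes of 0.25 and 0.09. P2rx4 1425525_a_at and P2rx7 1439787_at correlated at r = 0.19 over the 12 arrays.

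**Figure D4:**
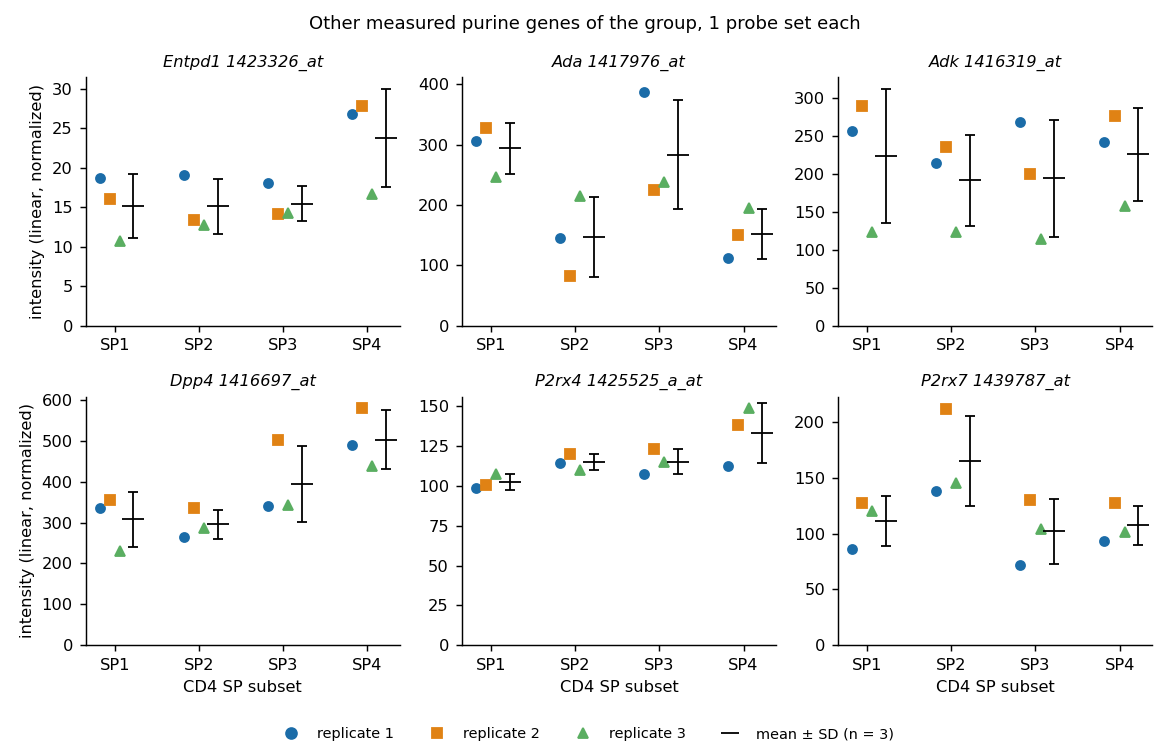
Linear intensities of 1 probe set each of Entpd1, Ada, Adk, Dpp4, P2rx4 and P2rx7, with points for the 12 arrays and bars for the subset mean ± SD (n = 3). Entpd1 and Dpp4 are highest in SP4, at means of 23.8 and 502, P2rx7 is highest in SP2, at 165, and Ada is low in SP2 and SP4.

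Over the 24 probe sets, SP4 was the highest subset for 17, and the share over all probe sets was not computed for this count. All Entpd1 probe sets, which were dim, and most of those of Adk were among the 17. Subset means increased with each stage, SP1 to SP4, in 7 of the 24, against 6.33% of all probe sets, and decreased with each stage in 0, against 6.44%. The 7 were Nt5e 1428547_at and 1422974_at, Adk 1446675_at and 1421767_at, Dpp4 1441342_at, and P2rx4 1425525_a_at and 1446429_at. The median SP4 over SP1 log2 fold change was 0.26 over the 24 and -0.01 over all probe sets. SP4 lay above SP1 without overlap in 8 of the 24, against 6.29% of all probe sets, and below it in 1, Ada, against 6.19%. Several probe sets measure 1 gene, so these counts are not of independent genes.

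The replicate block raised the counts of called probe sets in SP4 over SP1 and in SP4 over SP2. In SP4 over SP1, 6 of the 24 rose with the block, against 3.39% of all probe sets, and they came from Nt5e, Entpd1, Adk and Dpp4. In SP4 over SP2, 5 rose and 2 fell with the block, where 1.84% of all probe sets rose and 0.808% fell. The 5 were of Nt5e, Entpd1 and Dpp4, and the 2 that fell were the P2rx7 probe sets. In SP4 over SP3 Nt5e was the single call with and without the block, where 0.897% of all probe sets rose with it. In SP3 over SP1, 0 of the 24 passed by limma in either fit, with 1 at an unadjusted p under 0.05 without the block and 5 with it, and 0.0111% of all probe sets passed without the block and 0.329% with it. In SP2 over SP1, 0 passed in either fit, with 1 and 4 at an unadjusted p under 0.05, and 0% and 0.00888% of all probe sets passed.

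Of 98 listed genes of purine handling, among them the genes above other than Dpp4, 80 had a probe set of their own and were read by the one of highest mean. In SP4 over SP1, 5 of the 80 rose and 0 fell, against 1.52% of 18193 genes called in either direction, and the median log2 fold change was 0.01. The 5 were Nt5e, Xdh, Ampd3, Adcy7 and Pde3b. With the block 10 rose and 2 fell, against 6.06% of genes: Entpd1, P2ry13, Panx1, Ampd1 and Prkacb joined the risers, and Nt5c3b and Adcy9 fell.

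Among salvage and breakdown genes, Xdh encodes xanthine dehydrogenase, which makes uric acid at the end of purine breakdown. It read 36.3, 46.8 and 34.0 for SP1, 37.9, 34.2 and 38.5 for SP2, 33.5, 44.4 and 42.8 for SP3 and 88.6, 123 and 101 for SP4. Only SP4 stood out, and it did so without overlap. The log2 fold changes were 1.12 over SP1, 1.17 over SP2 and 1.09 over SP3 (adjusted p = 0.00349, 0.00356 and 0.0249, limma). With only the 2 subsets compared in the fit, none of these passed (adjusted p = 0.0742 over SP1, 0.0584 over SP2 and 0.224 over SP3). Without the third arrays all did, at 1.07, 1.21 and 1.14 (adjusted p = 0.0165, 0.00796 and 0.0184). The call against SP3 ended when any of 7 arrays was left out (up to 0.159): the first of SP1, the first or second of SP2, any of SP3 or the second of SP4. With the block it passed at 0.00111, and no single array ended it. In SP4 over SP2, 2 of the 80 rose (Nt5e and Xdh) and 1 fell (Adcy9), against 0.775% of genes, and 7 rose and 2 fell with the block, against 3.42%. In SP4 over SP3, 2 rose and 0 fell, against 0.225%, and 5 rose with the block (Nt5e, Xdh, Ampd3, Adcy7 and Pde3b), against 1.5%. The blocked calls over SP3 ended for Ampd3 when any array but the second of SP2 and of SP4 was left out (adjusted p up to 0.295), for Adcy7 any but the second of SP2 and the third of SP3 (up to 0.307), and for Pde3b any but the second of SP2 (up to 0.321). Among the earlier stages 0 of the 80 passed by limma without the block, where 0% of genes were called in SP3 over SP2, 0.011% in SP3 over SP1 and 0% in SP2 over SP1. With the block 1 passed, Ampd1 in SP3 over SP1 (adjusted p = 0.0191, up to 0.159 without any 1 array of either subset), where 0.28%, 0.44% and 0.0055% of genes were called in the same order.

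AMP deaminase takes AMP to IMP, away from adenosine. Ampd3 read 40.7, 45.3 and 48.9 for SP1, 56.2, 85.5 and 71.9 for SP2, 54.4, 66.8 and 85.4 for SP3 and 133, 97.1 and 138 for SP4. It rose by 1.18 in SP4 over SP1 (adjusted p = 0.0109, limma, 0.0595 without the first SP1 array and 0.0682 with only the 2 subsets in the fit). Its blocked call over SP2 (adjusted p = 0.0327) ended without the first or second of SP1, the first of SP2, the third of SP2, the second of SP3, the first of SP4 or the third of SP4 (up to 0.157). Ampd1, the isoform best known from muscle, averaged 221 in SP4 and 123 for SP1, a log2 fold change of 0.76 that passed with the block (adjusted p = 0.132 without it and 0.00111 with it, limma). Nt5c3b, a cytosolic nucleotidase gene, averaged 388 in SP4 and 583 in SP1 and passed only with the block (log2 fold change -0.56, adjusted p = 0.790 without it and 0.0245 with it, limma). The call ended without any array of SP1, the first of SP4 or the third of SP4 (up to 0.136). In all, 2 of 21 measured salvage and breakdown genes rose in SP4 over SP1 and 0 fell, against 1.52% of all genes called in either direction. With the block 3 rose and 1 fell, against 6.06%.

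In the cyclic AMP arm, which lies downstream of adenosine receptors, 2 of 17 measured genes rose in SP4 over SP1 and 0 fell (3 and 1 with the block). Of all genes, 1.52% were called there in either direction, and 6.06% with the block. Adcy7, an adenylyl cyclase gene of blood cells, read 685, 700 and 929 in SP1, 967, 1225 and 1255 for SP2, 935, 1022 and 1594 for SP3 and 2238, 1730 and 1987 for SP4. Pde3b, which encodes a phosphodiesterase that breaks cyclic AMP down, read 524, 569 and 575 for SP1, 674, 746 and 909 for SP2, 752, 884 and 1117 for SP3 and 1811, 1294 and 1474 for SP4. In both, SP4 lay above every other array. Adcy7 rose by 1.35 and Pde3b by 1.42 over SP1 (adjusted p = 0.0127 and 0.00439, limma). The Adcy7 call ended without the first or second SP1 array or the first SP4 array (up to 0.0682) and with only the 2 subsets in the fit (0.0548). Without the third arrays Ampd3, Adcy7 and Pde3b still passed over SP1. A gene of cyclic AMP synthesis and a gene of its breakdown both rose.

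Against SP2, Adcy7 and Pde3b, at 0.78 and 0.96, and Pde4b, another cyclic AMP phosphodiesterase gene, at 0.89, passed with the block and not without it (adjusted p = 0.0226, 0.00508 and 0.0238 with it, limma). Pde3b also passed when the third arrays were left out, at 1.09 (adjusted p = 0.0337). The blocked Adcy7 call ended without the first of SP2, the third of SP2, or the first or second of SP4 (up to 0.109), and the Pde4b call without the first or second of SP2, the second of SP4 or the third of SP4 (up to 0.133). Adcy9, a further cyclase gene, was dim, at 23.1, 20.7 and 20.8 in SP4 and 40.8, 45.2 and 32.4 in SP2. It fell by 0.56 on the log2 scale in that comparison (adjusted p = 0.0295, limma, and 0.00520 with the block), and its blocked call over SP1 (adjusted p = 0.0184) ended without any 1 array of SP4 or SP1 (up to 0.0888). Without the block the call over SP2 ended when any array other than the third of SP1, SP2 or SP3 was left out (up to 0.146) and with only the 2 subsets in the fit (0.251). Prkacb, a catalytic subunit gene of protein kinase A, averaged 1366 in SP4 and 871 in SP1 and passed only with the block (log2 fold change 0.62, adjusted p = 0.0329, and up to 0.165 without the first or second of SP1, the second or the third of SP3, or the first or the third of SP4).

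**Figure D5:**
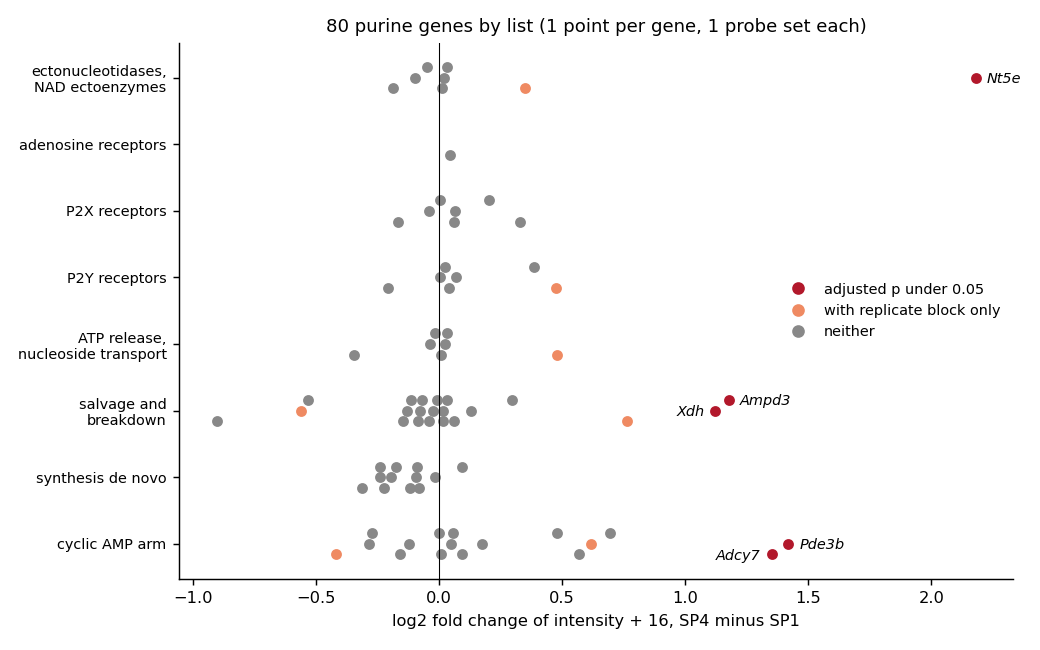
SP4 minus SP1 log2 fold changes of intensity + 16 for the 80 measured genes, 1 point per gene, in rows by list. Nt5e at 2.18, Pde3b at 1.42, Adcy7 at 1.35, Ampd3 at 1.18 and Xdh at 1.12 pass without the block, and 11 of the 12 de novo synthesis genes lie below 0 with none passing.

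Few receptor genes passed. Of 7 P2X receptor genes 0 passed in SP4 over SP1 in either fit, with 1 at an unadjusted p under 0.05, and of 7 P2Y receptor genes P2ry13, an ADP receptor gene, passed with the block and not without it (log2 fold change 0.47, adjusted p = 0.0253 and 0.346, limma), and it passed at 0.56 when the third arrays were left out (adjusted p = 0.0356). Of 4 adenosine receptor genes only Adora3 was measured, with means of 29.4 in SP4 and 27.4 in SP1 and a log2 fold change of 0.05. Panx1, a channel through which ATP leaves cells, averaged 430 in SP4 and 303 in SP1 and passed with the block only (log2 fold change 0.48, adjusted p = 0.0203). Leaving out any of 5 arrays ended the P2ry13 call, the 3 of SP1 and the first or second of SP4, and any of 5 the Panx1 call, the first or second of SP1 and the 3 of SP4 (up to 0.113 and 0.122). Of 8 ectonucleotidase and NAD ectoenzyme genes Nt5e rose, joined by Entpd1 with the block. In SP4 over SP1, 1.52% of all genes were called in either direction, and 6.06% with the block. Of 12 de novo synthesis genes 0 passed in SP4 over SP1 by limma in either fit, with 0 and 1 at an unadjusted p under 0.05. Their median was -0.14, against -0.01 over all genes.

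Across the 12 arrays, the genes whose pattern was most like that of Nt5e 1428547_at were sought among 16205 probe sets of 1 gene with a mean of at least 50. The 8 with the highest Pearson correlation on the log2 scale were Ppp3cc (r = 0.97), Mctp2 (0.96), Adam19 (0.95), Fam234a (0.95), Dusp7 (0.95), Tnfsf8 (0.95), Epas1 (0.95) and Oas1a (0.95). Ppp3cc, a catalytic subunit gene of calcineurin, averaged 50.3 for SP1, 70.3 for SP2, 68.9 for SP3 and 121 for SP4. Adam19, a surface metalloprotease gene, averaged 60.7, 105, 136 and 319 in the same order, and Tnfsf8, which encodes CD30 ligand, 42.7, 68.2, 66.5 and 140. The arrays share subsets and replicates, so r describes likeness only, and with the replicate means taken out it stayed between 0.95 and 0.98 for all 8. Among the other genes of the group, 1428547_at correlated at r = 0.91 with the dim Entpd1 1450939_at, 0.50 with Entpd1 1423326_at and 0.21 with Entpd1 1453586_at. For P2rx4, r was 0.85 with 1425525_a_at, 0.62 with 1446429_at, 0.09 with 1452527_a_at and -0.004 with 1441772_at. For Dpp4, r was 0.70 with 1416697_at and 0.33 to 0.77 with the others, and for Ada it was -0.42.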

How the data were processed

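The authors sorted the cells, hybridised their RNA to Affymetrix arrays (Mouse Genome 430 2.0) and read these with GCOS 1.4. The deposited table holds linear intensity values per probe set, already background corrected and normalized between arrays by the authors. The paper's methods name RMA for this step and the submitters' processing notes name MAS5, with versions not given in the sources used here. From these, log2(intensity + 16) was computed, and limma 3.58.1 in R 4.3.3 was fitted to all 12 arrays with 1 mean per subset (8 residual degrees of freedom) and moderated by eBayes with trend. Benjamini-Hochberg adjustment ran over 45037 probe sets per comparison, and an adjusted p under 0.05 made a call whatever the fold. The number of arrays, 3 per subset, limits the precision.

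By the array annotation 34945 probe sets name 1 gene, 932 several and 9160 none here. Each of 18193 genes in the lists was read by its probe set of highest mean, with _x_at probe sets taken last. The genes of the group and all lists were chosen with earlier results of these data known. By the rule for names, the text names every probe set of the group, list genes called in any comparison in either fit, and the 8 genes most like Nt5e. Marker lists for the gate and for double positive, regulatory, NKT and innate-like, activated or memory, B, myeloid and dendritic, epithelial and stromal, and erythroid cells were summed per array. The sum of 7 B cell markers was 1418 to 3635 in SP4 and 886 to 3654 in SP1, that of 10 epithelial and stromal markers 365 to 672 in SP4 and 308 to 506 in SP1, and that of 4 erythroid markers 109 to 215 in SP4 and 139 to 201 in SP1.

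Replicate numbers were taken to pair the samples, and the study's array repeats matched the numbers. Deviations from subset means correlated between 0.279 and 0.883 for arrays of 1 number. For first against second arrays they correlated between 0.178 and 0.729. These ranges overlap, so the correlations alone do not show that first and second arrays were paired across subsets. A fit with the number as a block (6 residual degrees of freedom) is given where it changed a call. The labels do not say that same-numbered preparations share mice. Alternatives were the block, offsets of 1 and 64, a floor at a mean of 50, quantile normalization, only the subsets compared, no trend, the third arrays left out and each array left out in turn. Leaving out each array in the blocked fit was added after the data were seen. The fits were tested on simulated data. Promoter windows are from RefSeq (GRCm38.p6), with 7 of the 8 genes matched.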

Additional observations from a re-analysis of the deposited data

How the results depend on the processing

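Nt5e in SP4 over SP1 kept its direction and its call under every alternative run, with a log2 fold change of 1.93 to 2.39 when 1 array was left out. Over SP2 it was 1.42 to 1.87 and over SP3 1.36 to 1.81 with 1 array left out. Over SP1, SP3 exceeded by 0.44 to 0.80 and SP2 by 0.38 to 0.60, and neither was called. SP3 over SP2 was -0.08 to 0.29: it was -0.03 without the first SP2 array, -0.03 without the second SP3 array and -0.0751 without the third SP3 array.

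With the replicate block, called probe sets of the group numbered 6 in SP4 over SP1, 7 in SP4 over SP2 and 1 in SP3 over SP2, and called purine genes 12, 9, 5 in SP4 over SP3 and 1 in SP3 over SP1. Fitting only the 2 subsets compared left 2 purine genes in SP4 over SP1, and in SP4 over SP2 and over SP3 it left 0 probe sets of the group and 0 purine genes by limma, with Nt5e at 1.66 (adjusted p = 0.0996) and 1.60 (adjusted p = 0.300). Of the 24 probe sets, 9 and 5 had an unadjusted p under 0.05 in these comparisons when all 12 arrays were fitted. In SP4 over SP3, an offset of 1 gave 0 probe sets and 1 purine gene, with Nt5e at 1.82 (adjusted p = 0.0513), and no trend gave 0 and 1, with Nt5e at 1.60 (adjusted p = 0.0617). Without the third arrays there were 2 probe sets and 6 purine genes in SP4 over SP2, 4 purine genes in SP4 over SP3 and 1 in SP3 over SP2. With 1 array left out, probe sets called ranged from 1 to 2 in SP4 over SP1, from 0 to 2 in SP4 over SP2 and from 0 to 1 in SP4 over SP3, and purine genes from 3 to 6, from 1 to 3 and from 0 to 2. Offsets of 64, the floor at 50 and quantile normalization moved no count beyond 1.5 times, and probe sets under the floor have no value there. Of these alternatives, only the replicate block has its shares of all probe sets and genes called given above. The counts under the others therefore do not show whether the group changed more than all probe sets or genes did. Some of these fits held fewer arrays, and the cause of the changes was not tested.

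Over 8 alternatives other than leaving out single arrays, the block brought 26 of 47 single results past the threshold, and fitting only the 2 subsets took 6 below it. List genes called only with the block were named for that reason, so the 26 do not measure how far results depend on the block. Intensities below about 20, as for Entpd1, are near the low end of the table and limit what its probe sets can show.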
